A study of Mus musculus with 2 samples.

Results

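The lysosomal hydrolases and membrane proteins described here are 35 genes, chosen by name from the 55536 genes of the annotation. The choice used no threshold on a value, but was made with earlier results of these data known. They comprise 12 proteases, 9 glycosidases, 6 lipid hydrolases and activators, 6 membrane proteins and 2 other luminal proteins. Their RNA was measured by sequencing of total RNA, with ribosomal RNA depleted, from the nuclear (nucleoplasmic) fraction of macrophages grown from C57BL/6J mouse bone marrow. There was 1 group: cells exposed to 100 ng/ml Lipid A for 12 h, rested without it for 12 h and exposed again to 100 ng/ml for 40 min. Lipid A is the lipid anchor of lipopolysaccharide, from the outer wall of Gram-negative bacteria, and is sensed by TLR4. The group held 2 libraries, biological replicates 1 and 2, which share a donor entry, and the labels give no sex or age. The RNA input was 1 µg for library 1 and 500 ng for library 2, so input and replicate number cannot be told apart. No unexposed or singly exposed cells were part of the design. The values therefore describe restimulated cells and not a change, and no p-value was computed.

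Lysosomes are acidic compartments in which hydrolases break down proteins, glycans, lipids and nucleic acids that arrive from phagosomes, endosomes and autophagosomes. Most of the hydrolases are made in the endoplasmic reticulum, tagged with mannose 6-phosphate in the Golgi and carried to the lysosome by sorting receptors. A membrane rich in glycosylated proteins such as LAMP-1 and LAMP-2 encloses them, and a proton pump acidifies the lumen. Macrophages depend on this compartment to digest engulfed microbes and dead cells and to prepare peptides for presentation. The transcription factors of the MiT/TFE family bind CACGTG-type elements near the starts of many lysosomal genes.

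The expected counts over all named genes summed to 19797829 in library 1 and 17213606 in library 2. Mitochondrial transcripts took 2.63% of the counts in library 1 and 6.60% in library 2, and the nuclear RNA Neat1 stood at 1616 and 575 TPM (a level scaled by transcript length and by library total). The libraries thus differed in RNA of another compartment and in a nuclear marker. All 9 macrophage markers were detected, which here means at least 10 expected counts in both libraries, with Lyz2 highest at 1421 and 1201 TPM. None of the 9 neutrophil, 5 B cell or 6 fibroblast markers was detected. Of the T cell markers 1 of 6 was detected, Cd4 at 19.8 and 23.0 TPM, while Cd3e and Cd3g had 0 counts in both libraries. Among dendritic cell markers 4 of 6 were detected, none above 1.18 TPM in either library. The osteoclast markers Calcr, Dcstamp and Oscar had 0 counts, and 3 of 8 were detected, led by Nfatc1 at 8.47 and 6.29 TPM.

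The promoters of several members held the CACGTG element, and their sequences show how it is placed. The RefSeq promoter table (build GRCm38.p6) covers 250 bases before to 50 bases after each start and held 32 of the 35 members; Ctsb, Ctsh and Asah1 were not matched. In the lines that follow, capitals mark CACGTG, read on the gene's strand, and every base lies before a start in the RefSeq table. GENCODE M21 places the first base of Ctsd, Mcoln1, Naglu and Lgmn farther upstream, so those windows lie wholly or mostly within its gene models. Lamp1 is shown for its 4 copies within 70 bases, and the other lines show 1 copy each from 6 members with the longer match GTCACGTG.
Lamp1 (chr8:13159091-13159160, plus strand): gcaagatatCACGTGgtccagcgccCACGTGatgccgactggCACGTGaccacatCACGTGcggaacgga
Ctsd (chr7:142387908-142387937, minus strand): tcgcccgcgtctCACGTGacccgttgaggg
Mcoln1 (chr8:3500462-3500491, plus strand): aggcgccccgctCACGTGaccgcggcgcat
Glb1 (chr9:114401018-114401047, plus strand): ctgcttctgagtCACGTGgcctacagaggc
Naglu (chr11:101070009-101070038, plus strand): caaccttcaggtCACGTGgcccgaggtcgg
Lgmn (chr12:102439124-102439153, minus strand): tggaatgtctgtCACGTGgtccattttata
Gla (chrX:134601182-134601211, minus strand): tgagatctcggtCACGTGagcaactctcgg

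CACGTG was found in 11 of the 32 members (34.4%), against 8.09% of the 27025 genes of the table and 12.1% of the 8726 of them that were detected protein-coding genes. TCACGTG was found in 9 members (28.1%), against 4.29% and 7.36% in those same sets. GTCACGTG was found in 8 members (25%), namely Ctsa, Ctsd, Mcoln1, Lamp1, Glb1, Naglu, Lgmn and Gla, against 2.55% of all genes and 5.05% of the detected ones. Each longer motif contains the shorter ones, so these are not 3 separate counts, and both strands were read. GAGGAAGT, a PU.1-type element, was found in 4 members (12.5%: Ctss, Gusb, Ctsc and Gla), against 3.69% and 4.05%. A match describes the letters in the window and not binding, which was not measured.

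Of the 35 members, 34 were detected and 33 had at least 100 expected counts in both libraries. The median level was 79.0 TPM in library 1 and 69.6 in library 2. The median of the member means was 86.1 TPM, set beside 6.38 TPM for all 10979 detected protein-coding genes outside the mitochondrial genome. By mean TPM, 21 members stood in the top 10% of those genes, above 42.4 TPM, and 9 stood in the top 1%. The median percentile was 95.5 (94.3 in library 1 and 95.2 in library 2). Ctsk, Ctsf and Smpd1 were the 3 members below the median gene. In a bulk fraction a level cannot separate more cells expressing a gene from more RNA per cell. Mitochondrial transcripts were present (2.63% of counts in library 1 and 6.60% in library 2), so the levels may include RNA from outside the nucleus. How much they include was not tested.

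Together the members took 4.19% of the protein-coding expected counts in library 1 (Wilson 95% interval 4.18% to 4.20%) and 5.04% in library 2 (5.02% to 5.05%), or 4.61% ± 0.599 (SD, n = 2). These intervals cover counting error alone, taking each count as a separate molecule, and leave out variation between libraries. Reads carried no molecular identifiers and need not be separate molecules, so the intervals may be too narrow. Psap, Ctsb and Ctsd alone made up 63.5% and 65.1% of these counts. By TPM, proteases held 49.5% of the group in both libraries, lipid hydrolases and activators 31.4% and 30.9%, the other luminal proteins 8.73% and 8.26%, membrane proteins 7.05% and 7.94%, and glycosidases 3.28% and 3.37%.

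**Figure D1:**
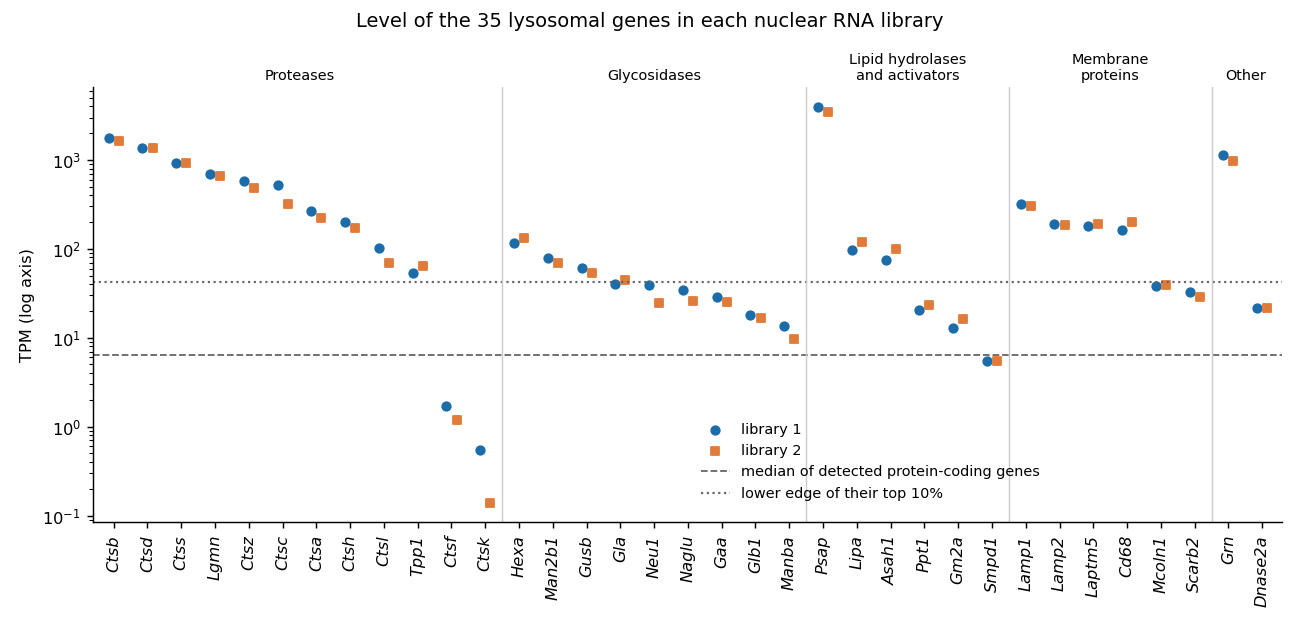
TPM of each of the 35 members on a log axis, by functional class, with library 1 as circles and library 2 as squares; the dashed line is the median of detected protein-coding genes (6.38 TPM) and the dotted line the lower edge of their top 10% (42.4 TPM). Of the proteases, 10 of 12 have a mean above the dotted line, whereas 3 of 9 glycosidases do.

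The proteases stood highest as a class, with a median percentile of 99.2 and 10 of 12 genes in the top 10%. Cathepsin B (Ctsb, chr14:63122462-63145923 in mm10, plus strand), a cysteine protease that cuts inside chains and trims dipeptides from their ends, had 1771 TPM in library 1 and 1619 in library 2. Cathepsin D (Ctsd, chr7:142375911-142388038, minus strand), the main aspartic protease of the lysosome, had 1379 TPM in both. Cathepsin S (Ctss, chr3:95526786-95556403, plus strand), which degrades the invariant chain of MHC class II in antigen-presenting cells, had 930 and 934 TPM. Ctsd and Ctss were nearly level in TPM between the libraries, and the 3 genes kept their order in both. With the whole distribution aligned, as described below, the log2 ratio of library 1 over library 2 was -0.28 for Ctsd and -0.28 for Ctss. Legumain (Lgmn), an asparagine-specific protease that also processes other cathepsins, had 692 and 656 TPM. Cathepsin Z (Ctsz), a carboxypeptidase, had 578 and 483 TPM.

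Cathepsin C (Ctsc), the dipeptidyl peptidase that activates serine proteases of granules, had 523 TPM in library 1 and 318 in library 2. Its library values were the farthest apart of the abundant proteases. Cathepsin A (Ctsa), a carboxypeptidase that also protects beta-galactosidase and neuraminidase 1, had 269 and 220 TPM. Cathepsin H (Ctsh), an aminopeptidase, had 201.2 and 170 TPM, and cathepsin L (Ctsl), an endopeptidase, had 103 and 69.6 TPM. Tripeptidyl peptidase 1 (Tpp1), which removes tripeptides from the ends of chains, had 54.0 and 63.5 TPM and was the lowest protease of the top 10%.

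The remaining proteases were low or not detected. Cathepsin F (Ctsf), a cysteine protease, had 59 and 47 expected counts, or 1.70 and 1.18 TPM. Cathepsin K (Ctsk, chr3:95499256-95509362), the collagen-degrading protease of osteoclasts, had 15 and 4 counts, or 0.54 and 0.14 TPM, and was the member not detected. Ctsk lies next to Ctss on chromosome 3 on the same strand, so the lowest member and one of the highest lie close together. Of 11 cathepsins of other tissues, none was detected and 9 had 0 counts in both libraries (Ctsg, Ctsj, Ctsm, Ctsq, Ctsr, Cts3, Cts6, Cts7 and Cts8). A count of 0 allows up to 3 counts, which is 0.152 CPM (counts scaled by library total) in library 1 and 0.174 CPM in library 2.

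Glycosidases, which remove sugars from glycolipids, glycoproteins and glycosaminoglycans, were lower, with a median percentile of 86.0 and 3 of 9 genes in the top 10%. The alpha subunit of beta-hexosaminidase (Hexa), which takes part in GM2 ganglioside breakdown, had 116 TPM in library 1 and 132 in library 2. Lysosomal alpha-mannosidase (Man2b1) had 79.0 and 69.5 TPM, and beta-glucuronidase (Gusb) had 61.4 and 54.0 TPM. These were the 3 in the top 10%. Alpha-galactosidase A (Gla), which degrades globotriaosylceramide, lay just outside it with 39.9 and 44.9 TPM. Neuraminidase 1 (Neu1), which removes sialic acid, had 38.8 and 24.5 TPM. Alpha-N-acetylglucosaminidase (Naglu), an enzyme of heparan sulfate breakdown, had 34.4 and 26.0 TPM. Acid alpha-glucosidase (Gaa), which degrades lysosomal glycogen, had 28.8 and 25.1 TPM. Beta-galactosidase (Glb1) had 18.2 and 16.7 TPM and beta-mannosidase (Manba) 13.6 and 9.77 TPM. All 9 were above the median detected gene in both libraries.

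The lipid class was led by prosaposin and otherwise spread widely. Prosaposin (Psap, chr10:60277627-60302597, plus strand), the precursor of the saposins that present sphingolipids to their hydrolases, had 3913 TPM in library 1 and 3423 in library 2, the highest level in both among detected protein-coding genes outside the mitochondrial genome. It took 33.3% and 30.3% of the members' counts, and its mean was 2.16 times that of Ctsb. Lysosomal acid lipase (Lipa), which frees cholesterol and fatty acids from lipoprotein lipids, had 97.6 and 119 TPM. Acid ceramidase (Asah1) had 74.8 and 100.7 TPM. Palmitoyl-protein thioesterase 1 (Ppt1), which removes fatty acids from proteins, had 20.4 and 23.2 TPM. The GM2 activator (Gm2a), the lipid-binding partner of hexosaminidase, had 12.9 and 16.3 TPM. Acid sphingomyelinase (Smpd1) had 5.52 and 5.41 TPM and lay below the median gene.

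Membrane proteins had a median percentile of 98.2, with 4 of 6 in the top 10%. Lamp1, the major glycoprotein lining the lysosome, had 318 TPM in library 1 and 306 in library 2. Lamp2, its relative in autophagy and membrane stability, had 193 and 185 TPM. Laptm5, a lysosomal membrane protein of blood cells, had 181 and 190 TPM, and Cd68, the macrophage member of the LAMP family, had 164 and 199 TPM. Lamp2, Laptm5, Cd68 and the protease Ctsh stood in opposite order in the libraries, so these 4 cannot be ordered. Mucolipin 1 (Mcoln1), a calcium-permeable channel, had 38.0 and 38.7 TPM, and Scarb2 (LIMP-2), the carrier of glucocerebrosidase to the lysosome, had 32.8 and 28.9 TPM.

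Progranulin (Grn), a secreted and lysosomal protein that is cut into granulins, had 1125 TPM in library 1 and 965 in library 2, behind only Psap, Ctsb and Ctsd by mean. The acid nuclease Dnase2a, which degrades DNA of engulfed cells, had 21.5 and 21.7 TPM. Down the list of 35 members, 24 of 34 neighbouring pairs kept their order in both libraries and 18 had library values that did not overlap. The first 7 members in order, Psap, Ctsb, Ctsd, Grn, Ctss, Lgmn and Ctsz, were each separated from the next without overlap, except Ctsz, whose values overlapped those of Ctsc.

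The lists of other genes of the compartment had lower medians than the members. All 25 other hydrolases were detected, with a median percentile of 83.5 and 8 in the top 10%, between Lyz2 at 1421 and 1201 TPM and the arylsulfatase Arsb at 4.26 and 4.59 TPM. All 18 other membrane proteins were detected, with a median percentile of 75.4, between the chloride-proton exchanger Clcn7 at 182 and 114 TPM and Laptm4b at 1.07 and 1.84 TPM. The members' higher rank is a description of the chosen names. The 17 proton pump genes had a median percentile of 89.3, with the subunit Tcirg1 highest at 686 and 381 TPM and Atp6v0d2 lowest at 1.68 and 2.08 TPM. The 12 sorting genes had a median percentile of 75.6, between the mannose 6-phosphate receptor M6pr at 75.1 and 79.2 TPM and Sort1 at 1.28 and 1.31 TPM. All 4 MiT/TFE factors were detected, with Tfec highest at 40.3 and 53.9 TPM and Tfeb lowest at 11.6 and 5.90 TPM. Of 8 cathepsin inhibitors 4 were detected, with cystatin B (Cstb) highest at 42.9 and 48.1 TPM and Cst7 lowest at 20.6 and 17.4 TPM, and Stfa1, Stfa2 and Stfa3 had 0 counts.

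**Figure D2:**
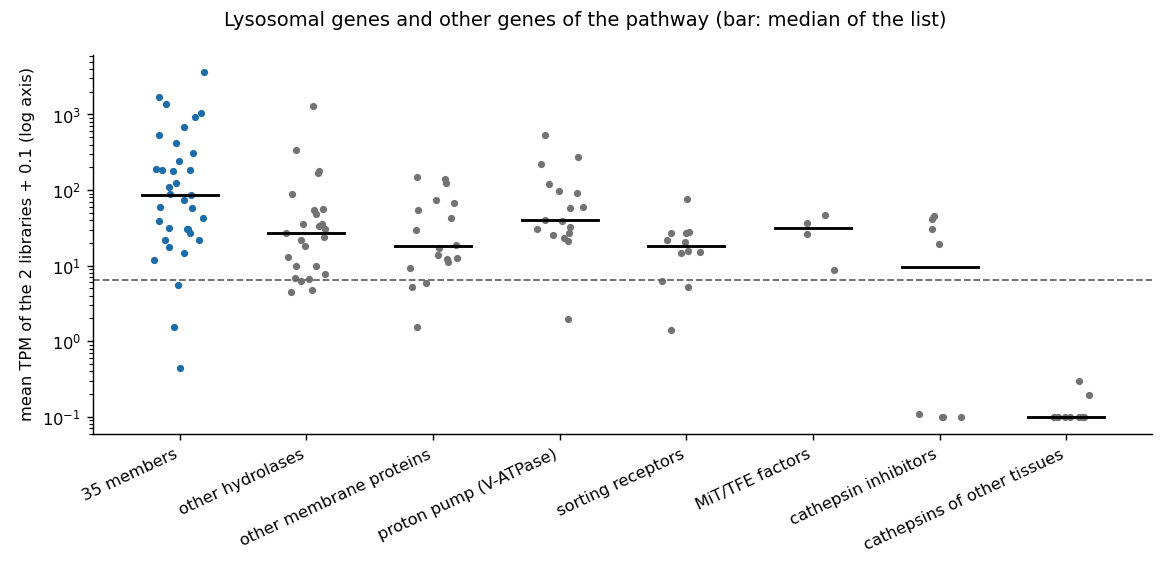
Mean TPM of the 2 libraries plus 0.1, on a log axis, for the 35 members and 7 lists of other genes of the pathway; each point is a gene, each bar the list's median and the dashed line the median of detected protein-coding genes. The member median (86.1 TPM) is the highest of the 8 bars and none of the 11 cathepsins of other tissues was detected.

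Between the libraries, the members were lower in library 1 once the whole distribution was aligned. The log2 ratio of TPM + 1, library 1 over library 2, was shifted so that the median of the detected protein-coding genes lay at 0; before this it lay at 0.27. Of the 34 detected members 7 were higher in library 1 (background 50% of 10979 genes) and 27 in library 2, with a median of -0.18. Without the count minimum, which moves the centre, the median was 0.12 and 22 of 35 members were higher in library 1 (background 48.8%), and in the kallisto tables the median was -0.53 and 3 of 34 were higher in library 1. The direction of this difference therefore depended on the centre. The higher mitochondrial share of library 2 and its lower Neat1 moved with it, and their part in the result was not tested.

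No member was more than 1.5-fold higher in library 1 (background 7.17%), and 2 were more than 1.5-fold higher in library 2 (background 5.43%). These were Asah1, with a centred log2 ratio of -0.70, and Gm2a, with -0.59. Just inside the 1.5-fold limit lay Lipa at -0.56 and Cd68 at -0.56. None of the 34 differed more than 2-fold (background 1.53%), in either direction. The kallisto tables put 14 members more than 1.5-fold higher in library 2 (background 5.13%) and 0 in library 1, so the count depended on the program.

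The classes lay at different places on this scale, which is given as a description. After centring, all 6 lipid genes were lower in library 1, with a median of -0.51. So were all 6 membrane proteins, with a median of -0.26, and both other luminal proteins, Grn at -0.05 and Dnase2a at -0.29. Of the detected proteases 4 of 11 were higher in library 1 (Ctsc, Ctsl, Ctsa and Ctsf; median -0.03), and of the glycosidases 3 of 9 (Neu1, Naglu and Manba; median -0.09). The highest ratio was that of Ctsc, at 0.44, followed by Neu1 at 0.37 and Ctsl at 0.28. In the kallisto tables Ctsc and Neu1 lay at 0.07 and 0.05, and Ctsl was on the other side of 0, at -0.06. The signs matched between the programs for 30 of 34 members. Macrophage markers had a median of 0.17 in the RSEM tables, with 7 of 9 higher in library 1, but -0.19 and 2 of 9 in the kallisto tables. Without centring, the RSEM TPM of Psap, Smpd1, Lamp1, Lamp2 and Scarb2 was higher in library 1. That of the other lipid and membrane genes was lower.

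**Figure D3:**
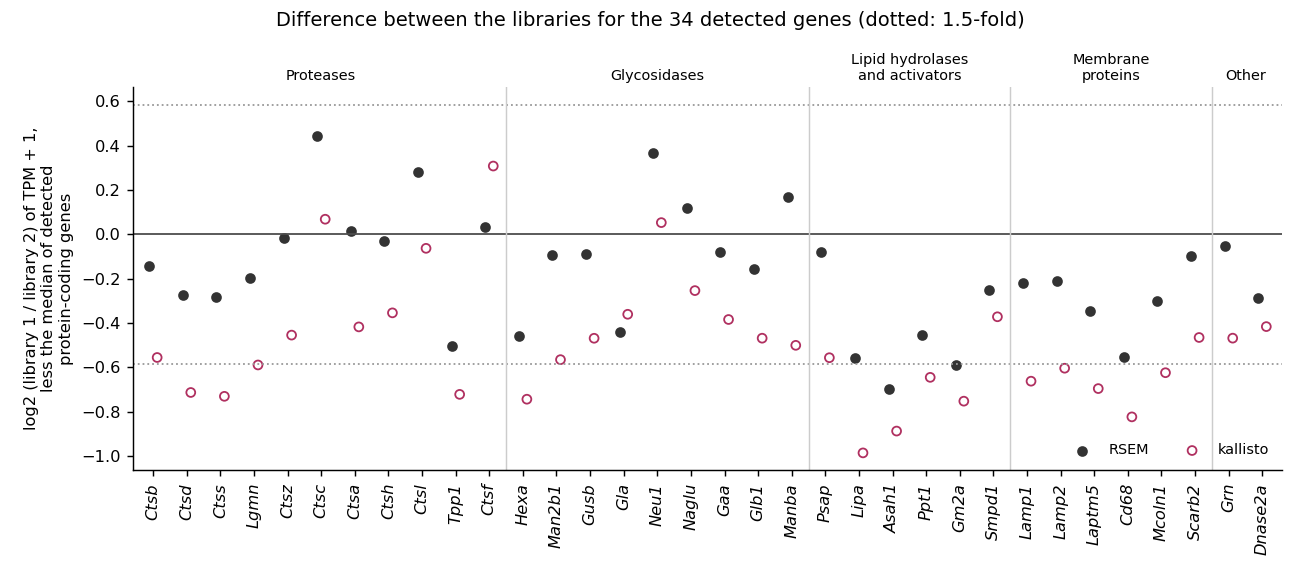
Centred log2 ratio of TPM + 1, library 1 over library 2, for the 34 detected members by class, from the RSEM tables (filled) and the kallisto tables (open); dotted lines mark 1.5-fold. In both programs all 6 lipid genes and all 6 membrane proteins lie below 0, and the open points lie mostly below the filled ones (medians -0.53 and -0.18).

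Several members were carried by more than 1 transcript, and the make-up was compared between the libraries and between the programs. Psap TPM was assigned to transcripts with 2 different first exons, and use of the starts was not measured. Unspliced RNA from the start of Psap-202 can also give reads over the 71-base first exon of Psap-203. The shares cannot tell these apart. Psap-203, whose first exon starts 6834 bases downstream of that of Psap-202, held 52.1% of Psap TPM in library 1 and 49.7% in library 2. Psap-202 held 44.5% and 46.2%. The other 3 Psap transcripts begin within 1 base of Psap-202, and together the upstream start held 47.9% and 50.3%. In the kallisto tables Psap-203 held 46.3% and 46.7% and the upstream start 53.7% and 53.3%, so the downstream start held more only in the RSEM values of library 1. Both starts have an entry in the RefSeq promoter table, and the 60 bases before each are shown because the sequence around the 2 first exons differs.
Psap upstream start (chr10:60277568-60277627, plus strand): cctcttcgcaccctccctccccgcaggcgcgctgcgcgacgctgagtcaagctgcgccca
Psap downstream start (chr10:60284401-60284460, plus strand): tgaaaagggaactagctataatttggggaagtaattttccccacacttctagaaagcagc
Neither window of Psap held CACGTG. Psap also has a 9-base exon (chr10:60297537-60297545), present in Psap-205 and absent from Psap-202, which is known for variable inclusion within the saposin B region. The lines show the coding bases around it, with the exon in capitals.
Psap-205: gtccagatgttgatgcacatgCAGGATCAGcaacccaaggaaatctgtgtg
Psap-202: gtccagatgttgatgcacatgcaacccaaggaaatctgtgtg
Psap-205 had 90.6 TPM in library 1 and 67.1 in library 2, which was 2.32% and 1.96% of Psap. The transcripts without the 9-base exon thus held nearly all of Psap in both libraries.

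Lamp2 is spliced to 3 alternative last exons, which encode the membrane span and the short cytosolic tail of LAMP-2A, LAMP-2B and LAMP-2C. LAMP-2A is the receptor of chaperone-mediated autophagy. The coding bases of the last exons (mm10, minus strand) are shown because they alone tell the isoforms apart, with the last 5 codons before the stop in capitals.
LAMP-2A (chrX:38405435-38405571): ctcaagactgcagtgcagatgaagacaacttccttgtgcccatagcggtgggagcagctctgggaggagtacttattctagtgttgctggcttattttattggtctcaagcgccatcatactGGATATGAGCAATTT
LAMP-2B (chrX:38421715-38421851): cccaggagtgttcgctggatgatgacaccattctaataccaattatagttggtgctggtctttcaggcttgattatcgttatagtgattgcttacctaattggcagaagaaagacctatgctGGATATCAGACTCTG
LAMP-2C (chrX:38402142-38402281): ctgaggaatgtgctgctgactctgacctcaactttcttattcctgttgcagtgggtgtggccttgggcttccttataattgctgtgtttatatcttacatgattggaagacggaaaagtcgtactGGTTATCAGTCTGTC
The LAMP-2B transcript held 47.5% of Lamp2 TPM in library 1 and 49.1% in library 2, LAMP-2A held 28.8% and 31.9%, and LAMP-2C held 1.59% and 1.07%. The order of the isoforms was the same in both libraries and in the kallisto tables, where LAMP-2B held 42.3% and 44.7% and LAMP-2A 31.7% and 34.1%. A non-coding transcript of the gene held 14.7% and 9.79%. On the minus strand the LAMP-2B exon is transcribed first, then that of LAMP-2A and then that of LAMP-2C. Unspliced nuclear RNA that reaches a later exon can therefore also give reads over the earlier ones. The shares cannot separate such RNA from finished isoforms.

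Nuclear RNA includes transcripts whose introns have not been removed. Reads over an annotated retained intron can be assigned to that transcript whether the intron is kept or not yet spliced. The shares given here cannot tell these apart. They sum all transcripts annotated with this type, some of them short, such as Grn-208 with 444 bases. A share therefore need not come from reads over a whole intron. Among members with at least 100 counts, 21 have a retained-intron transcript, and it held 20% or more of TPM in 7 of them (33.3%), set beside 58.3% of 5058 protein-coding genes with such a transcript. The median share was 8.65% in the members and 24.03% in all these genes. In 15 of the 21 the share was higher in library 1 (background 59.9%) and in 6 it was higher in library 2.

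**Figure D4:**
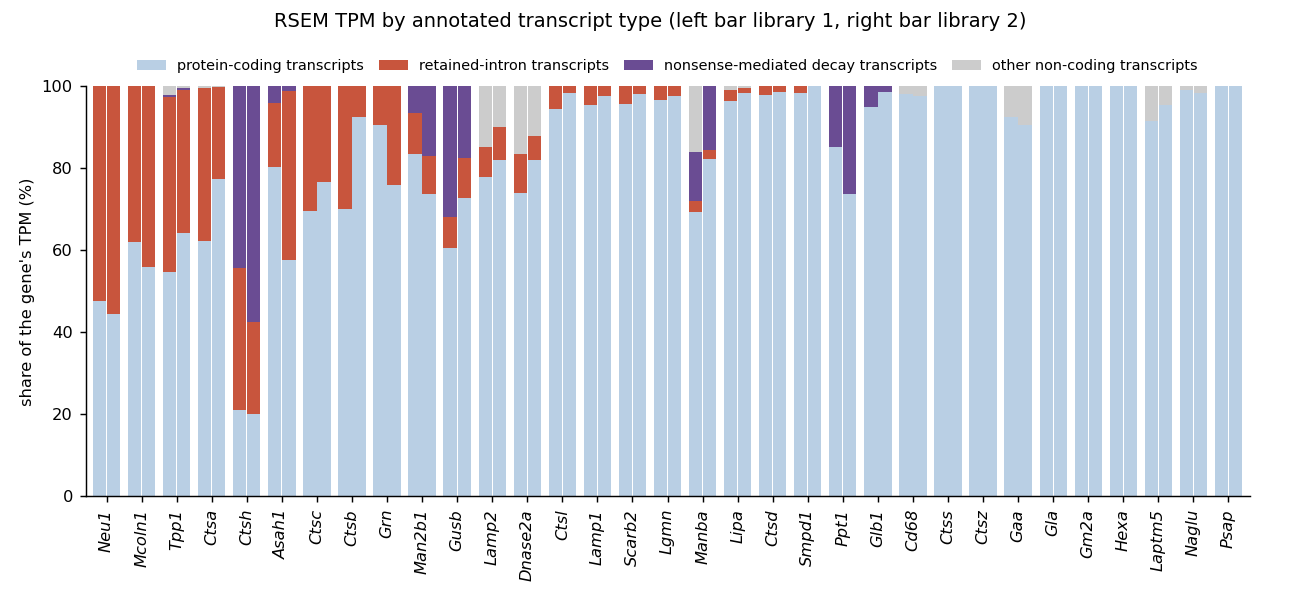
Share of each gene's RSEM TPM by annotated transcript type for the 33 members with at least 100 counts in both libraries, ordered by mean retained-intron share; the left bar of each pair is library 1 and the right bar library 2. Neu1 has the largest retained-intron share (52.4% and 55.5%) and Ctsh the largest share in nonsense-mediated decay transcripts (44.4% and 57.4%).

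Neu1 had the highest share. Its annotated retained-intron transcript keeps intron 3 of 5 whole (chr17:34932829-34934002, 1174 bases) and held 52.4% of Neu1 TPM in library 1 and 55.5% in library 2, against 47.6% and 44.5% for the spliced coding transcript. In Tpp1, all retained-intron transcripts together held 42.8% of TPM in library 1 and 34.8% in library 2. The leading one keeps intron 3 of 12 (chr7:105750331-105751589, 1259 bases) and held 25.8% and 22.7%. The ends of both introns are shown (mm10), with intron bases in capitals and 24 exon bases in lower case.
Neu1 intron 3, 5′ end (chr17:34932805-34932852, plus strand): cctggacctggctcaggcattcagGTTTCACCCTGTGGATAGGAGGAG
Neu1 intron 3, 3′ end (chr17:34933979-34934026, plus strand): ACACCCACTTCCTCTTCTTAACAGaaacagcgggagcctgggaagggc
Tpp1 intron 3, 5′ end (chr7:105751566-105751613, minus strand): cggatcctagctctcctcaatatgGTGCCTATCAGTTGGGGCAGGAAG
Tpp1 intron 3, 3′ end (chr7:105750307-105750354, minus strand): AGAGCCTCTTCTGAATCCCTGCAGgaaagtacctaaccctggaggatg
Both introns begin with GT and end with AG.

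The other members at 20% or more on average were Mcoln1, with 37.9% in library 1 and 44.0% in library 2, Ctsa, with 37.4% and 22.4%, Ctsh, with 34.6% and 22.4%, Asah1, with 15.6% and 41.2%, and Ctsc, with 30.3% and 23.4%. Asah1 passed 20% in library 2 only, so 6 of the 7 passed it in both. All 7 also passed it in the kallisto tables. Just below lay Ctsb, with 30.03% in library 1 and 7.58% in library 2, and Grn, with 9.30% and 24.1%. These 2 passed 20% in 1 library each and stood above it on average in the kallisto tables, at 36.1% and 21.4%. For Asah1, Ctsb and Grn the libraries differed by more than 2-fold in this share, and in different directions.

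Some transcripts are annotated for nonsense-mediated decay, the pathway that removes RNAs with early stop codons. On average over both libraries they held 20% or more of TPM in 3 of 9 members that have one, set beside 18% of 2500 protein-coding genes. The median share was 11.8% in these members and 4.31% in all such genes. Ctsh was highest. Ctsh-202 held 44.4% of its TPM in library 1 and 57.4% in library 2, against 20.7% and 19.8% for the protein-coding Ctsh-201. In the kallisto tables Ctsh-202 held 29.3% and 39.8%, above the 18.9% and 20.0% of Ctsh-201. Ctsh-202 lacks exon 3 of 12 (chr9:90061519-90061624, plus strand), shown in capitals with 15 bases of each neighbouring exon.
Ctsh exon 3: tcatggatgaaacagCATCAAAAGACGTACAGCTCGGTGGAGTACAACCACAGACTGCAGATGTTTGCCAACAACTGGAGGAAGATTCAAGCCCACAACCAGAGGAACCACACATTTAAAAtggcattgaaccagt
The exon is 106 bases long, which leaves a remainder of 1 on division by 3, so leaving it out shifts the reading frame. Ctsh-202 is 1238 bases long and Ctsh-201 is 1617, so they differ by more than this exon. Skipping of the exon was not measured on its own. Gusb-206 held 31.8% and 17.5% of Gusb, and the corresponding transcript of Ppt1 held 14.8% and 26.3% of that gene. Ctsh thus passed 20% in both libraries, Gusb in library 1 only and Ppt1 in library 2 only. In the kallisto tables Man2b1 also passed it on average, at 21.4%. Neu1 and Ctsh were the members among the 33 whose protein-coding transcripts held under 50% of RSEM TPM in both libraries. In the kallisto tables Manba (31.6% and 28.0%) and Tpp1 (32.6% and 49.2%) were also under 50% in both.

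**Figure D5:**
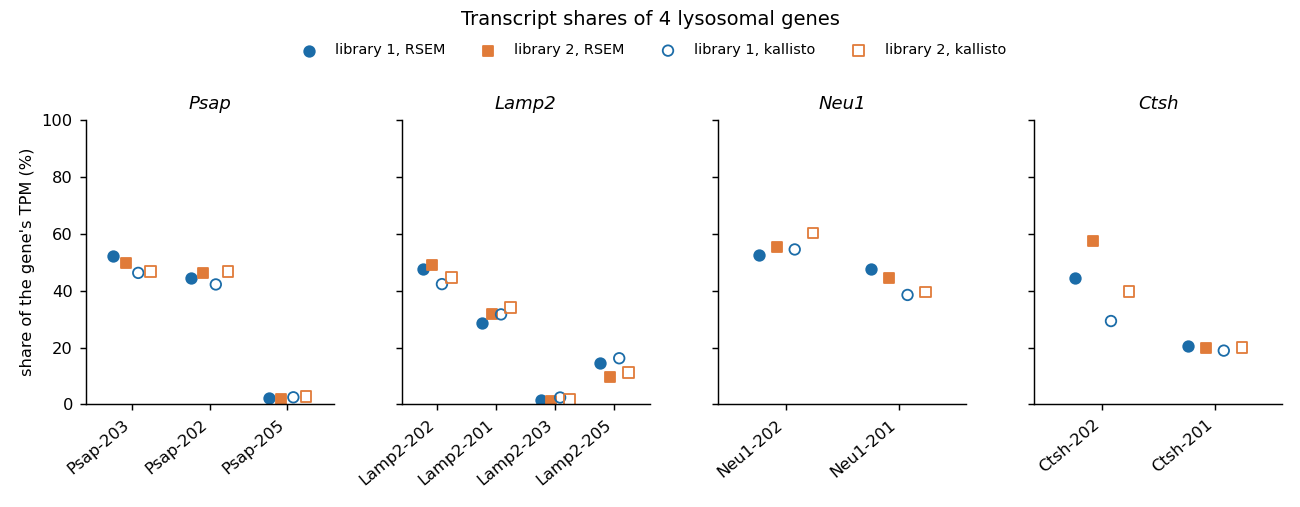
Share of gene TPM held by named transcripts of Psap, Lamp2, Neu1 and Ctsh; circles are library 1 and squares library 2, filled for RSEM and open for kallisto. Psap-203 and Psap-202 lie close together. The LAMP-2B transcript, leftmost for Lamp2, lies above the LAMP-2A transcript beside it, and the intron-keeping Neu1 transcript above the spliced one, in both libraries and both programs.

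Other transcript shares varied more between the libraries. Lgmn-201 held 56.4% of Lgmn in library 1 and 31.9% in library 2, and Lgmn-202 held 40.4% and 65.7%, so the leading transcript changed. Grn-203, a short coding transcript, held 23.2% and 2.30% of Grn. By contrast, Ctss-202 held 78.3% and 79.1% of Ctss and Ctsd-202 61.3% and 60.01% of Ctsd.

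Of the 35 members, 15 overlap another annotated gene, and whether reads were counted by strand is not given in the sources used here, so their reads may be shared. Gm49369, a protein-coding gene on the same strand as Ctsd, took 3311 expected counts in library 1 and 7714 in library 2, which was 6.17% and 13.7% of the Ctsd count. Pltp, opposite Ctsa, took 5756 and 4939 counts, or 70.02% and 65.0% of the Ctsa count. Cap1, opposite Ppt1, took 2031 and 1893 counts, which was more than Ppt1 itself had (891 and 1146). Gm26522, a non-coding gene opposite Ctsc, took 3376 and 2314 counts, and Tmppe, on the same strand as Glb1, took 314 and 255. These are counts of whole genes and not of the shared bases, so they do not give the number of shared reads. The levels of Ctsd, Ctsa, Ppt1, Ctsc and Glb1 are uncertain to an extent that was not measured.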

How the data were processed

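For each library there were RSEM-style tables of genes and of transcripts and a kallisto-style table of transcripts. Per the notes deposited beside the files, they use mm10 and the GENCODE M21 annotation. The aligner and program versions were not given in the sources used here. Each expected count is the authors' deposited estimate, which need not be whole. TPM was deposited by the authors, scaled over all features of a table. The authors also deposited interval bounds for TPM, a score of unstated level, used for no result.

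All values were computed here with Python 3.11.15 and pandas 2.3.3. Detection needed at least 10 expected counts in each library, and transcript shares at least 100. Percentiles are the percent of detected protein-coding genes outside the mitochondrial genome at or below a level. Library ratios use a pseudocount of 1, so they understate differences of low genes. TMM factors come from edgeR 4.0.16 and size factors from DESeq2 1.42.0, on expected counts rounded to whole numbers. The ratio step was tested on simulated counts without a pseudocount, with changes placed in well-counted genes only. The pseudocount and low genes were thus not covered. The percentile step was tested on a run of whole numbers. Transcript sequences are from GENCODE M21 and promoters from RefSeq. The members and lists were chosen with earlier results of these data known. All members are named; from other lists the highest and lowest detected gene and genes at 0 are named, and others were chosen after their values were seen. The value of 1 gene under this rule is not reported here.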

Additional observations from a re-analysis of the deposited data

How the results depend on the processing

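With 1 group of 2 libraries, values carry no test, and single-library estimates of transcript shares rest on reads that annotated isoforms share. The median percentile of 95.5 was 94.9 with kallisto TPM, 94.2 with CPM, 94.5 at a minimum of 50 counts, 97.8 with no minimum, 94.6 to 95.3 when leaving out 1 library, and 93.1 in the 20 members without an overlapping gene, a choice made after seeing the data. The number in the top 10% (21) was 21 to 28 under these settings, without the last, which was not run for it. The median library ratio of -0.18 was -0.53 with kallisto, -0.23 with TMM, -0.24 with DESeq2 size factors, -0.25 at a pseudocount of 0.1, -0.23 at a minimum of 50, -0.21 without overlapping genes, and turned to 0.12 with no minimum, where the centre is taken over genes mostly at or near 0. The 7 members higher in library 1 became 3 with kallisto and 22 with no minimum. The 2 members over 1.5-fold apart became 14 with kallisto, 6 with TMM, 6 with DESeq2 size factors, 4 at a pseudocount of 0.1 and 4 at a minimum of 50; the cause was not tested. The share of counts (4.61%) was 4.10% with kallisto and 4.19% to 5.04% when leaving out 1 library. The 7 members at 20% or more in retained-intron transcripts became 9 with kallisto and 7 to 8 when leaving out 1 library. No paired analysis was possible because there was 1 group.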
